A study of Mus musculus with 4 samples.

Results

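The genes described here encode the proteins of the mitochondrial ribosome, the particle that translates the few messages of the mitochondrial genome inside the organelle. The family was chosen with earlier results of these data known. Its members were taken by name, as the rows whose symbol is Mrpl or Mrps followed by a number and at most 1 letter. Pseudogene names were left out. The table of 21677 gene symbols held 68 such genes, and 10 more that the mouse annotation names in this way were not analysed here. RNA was sequenced from CT26, a mouse colon carcinoma line, in 2 groups: 2 libraries of Control cells, and 2 of iRhom KO cells, in which Rhbdf1, the gene for the inactive rhomboid protein iRhom1, had been targeted with CRISPR. Neither group was treated further. The knockout line was raised from 1 clone after lentiviral delivery of Cas9 and guide and selection with puromycin, so that the clone and the knockout cannot be told apart. The study calls the cells compared with the knockout in this RNA-seq WT, and names separately a vector line with Cas9 and no guide, also raised from 1 clone. The study describes the RNA-seq as representative of repeated independent experiments, without tying single libraries to them, so p-values measure the spread between these libraries, which may be technical.

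Mitochondrial ribosomes resemble those of bacteria, from which mitochondria descend, but about their bacterial core they carry many proteins that bacteria lack. All of their proteins are encoded in the nucleus, made in the cytoplasm and imported, while their ribosomal RNAs come from mitochondrial DNA, so a working particle needs both genomes. The large subunit joins amino acids and passes the new chain through its exit tunnel to the inner membrane, and the small subunit reads the message. The genes are expressed in nearly all cell types, and the products of mitochondrial translation are all subunits of the respiratory chain and its ATP synthase.

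Promoter sequences are shown for 5 members, since 2 features of these genes recur in the results: many share their start region with a gene on the other strand, and their promoters often hold the binding words of factors known for nuclear genes of mitochondria. Mrpl18 had the largest called fall, Mrps18b, Mrps18a and Mrps27 are called members whose promoters hold more than 1 word, and Mrpl17 had the larger of the rises. The sequences run 5′ to 3′ from 250 bases before to 50 bases after the RefSeq start in GRCm38.p6, with capitals marking matches on either strand to GCATGCGC, the word of NRF1, to CCGGAAG, the word of the ETS factors that include GABP, and to the 10-base word of YY1, which is the last run of capitals in Mrps18a and in Mrps27.
Mrpl18 (chr17:12916042-12916341, minus strand): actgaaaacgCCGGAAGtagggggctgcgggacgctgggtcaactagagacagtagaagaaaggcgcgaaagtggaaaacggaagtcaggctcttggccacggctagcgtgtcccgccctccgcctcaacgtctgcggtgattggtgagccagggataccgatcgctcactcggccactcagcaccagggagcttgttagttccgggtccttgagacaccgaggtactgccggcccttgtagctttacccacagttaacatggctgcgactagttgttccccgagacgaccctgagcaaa
Mrps18b (chr17:35916391-35916690, minus strand): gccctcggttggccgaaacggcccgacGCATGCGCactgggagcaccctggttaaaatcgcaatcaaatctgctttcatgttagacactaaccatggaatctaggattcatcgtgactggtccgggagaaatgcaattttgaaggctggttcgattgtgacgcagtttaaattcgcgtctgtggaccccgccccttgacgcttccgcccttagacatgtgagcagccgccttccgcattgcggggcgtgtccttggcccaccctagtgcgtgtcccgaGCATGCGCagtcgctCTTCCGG
Mrps18a (chr17:46110754-46111053, plus strand): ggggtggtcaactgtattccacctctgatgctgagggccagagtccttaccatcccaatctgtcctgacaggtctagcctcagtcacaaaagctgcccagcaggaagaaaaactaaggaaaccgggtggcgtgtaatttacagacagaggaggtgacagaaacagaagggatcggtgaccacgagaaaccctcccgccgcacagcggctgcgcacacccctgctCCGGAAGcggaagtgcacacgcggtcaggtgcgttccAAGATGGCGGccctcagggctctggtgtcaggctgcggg
Mrps27 (chr13:99344536-99344835, plus strand): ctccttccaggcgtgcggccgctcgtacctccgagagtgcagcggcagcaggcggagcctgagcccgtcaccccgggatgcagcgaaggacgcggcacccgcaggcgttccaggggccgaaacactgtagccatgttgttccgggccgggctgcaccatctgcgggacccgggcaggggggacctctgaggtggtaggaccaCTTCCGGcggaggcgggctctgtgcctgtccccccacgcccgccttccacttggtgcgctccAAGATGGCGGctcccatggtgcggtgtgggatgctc
Mrpl17 (chr7:105811038-105811337, minus strand): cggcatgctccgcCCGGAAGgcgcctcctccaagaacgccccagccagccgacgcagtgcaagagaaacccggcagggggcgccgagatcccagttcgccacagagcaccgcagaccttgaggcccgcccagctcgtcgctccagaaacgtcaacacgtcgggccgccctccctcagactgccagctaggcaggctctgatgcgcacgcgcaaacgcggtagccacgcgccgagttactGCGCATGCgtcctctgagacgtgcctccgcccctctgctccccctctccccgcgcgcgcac

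A promoter was found in RefSeq for 60 of the 68 members. The ETS word stood in 31.7% of these, against 20.7% of the promoters of the 6977 tested genes that have one and 9.12% of all 27025 promoters. The YY1 word stood in 8.33%, 2.59% and 0.899% of the same 3 sets, and the NRF1 word in 10.0%, 6.22% and 2.80%. The words CACGTG (the E-box), CCAAT and TATAAA were found in 8.33%, 40.0% and 6.67% of member promoters, and in 11.01%, 40.4% and 6.89% of those of tested genes. Among the members, the ETS word was in 5 of 19 promoters of genes called lower and in 14 of the other 41, the NRF1 word in 1 of 19 and in 5 of 41, and the YY1 word in 2 of 19 and in 3 of 41. No word was tested for a relation to the change, and a match says nothing of binding in these cells.

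All 68 members passed the filter, a group mean of 1 or more FPKM (mapped fragments of a gene, scaled by its length and the library's depth) in either group. Their mean level over the 4 libraries ran from 3.17 FPKM for Mrpl37 to 79.4 FPKM for Mrpl18, and their median level was 13.4 FPKM in Control and 12.3 FPKM in iRhom KO. Next to Mrpl18 stood Mrpl54 at 51.5 FPKM and Mrps21 at 45.5 FPKM, and the lowest beside Mrpl37 were Mrps10 at 3.32 FPKM and Mrpl48 at 3.69 FPKM. Summed over the members, the FPKM came to 1275 and 1285 in the Control libraries S17 and S19, and to 1082 and 1129 in the iRhom KO libraries S18 and S20. These sums were 0.312% and 0.297% of all FPKM in Control and 0.253% in each iRhom KO library, so that the groups did not overlap. In bulk RNA of this kind, fewer cells of a type and less RNA per cell cannot be told apart.

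The question put to each member was whether its level differed between Control and iRhom KO cells. Of the 68 members, 22 were called lower in iRhom KO (32.4%) and 2 were called higher, by limma on log2(FPKM + 0.5) at an adjusted p under 0.05. Over all 10271 genes tested, 21.9% were called lower and 10.7% higher. Where the filter was set at 5 FPKM, leaving 6174 genes, 27.0% were called lower, and 23 of the 62 members above that level were. The median log2 fold change of the members was -0.23, and that of all tested genes -0.10. In 43 members both iRhom KO libraries lay below both Control libraries, and in 17 both lay above; over all tested genes these 2 patterns took 46.1% and 25.9%. The calls depend on scaling: with trimmed mean scaling 10 members were called lower and 10 higher, against 15.8% and 16.2% of all genes, and the member median was then -0.13.

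**Figure D1:**
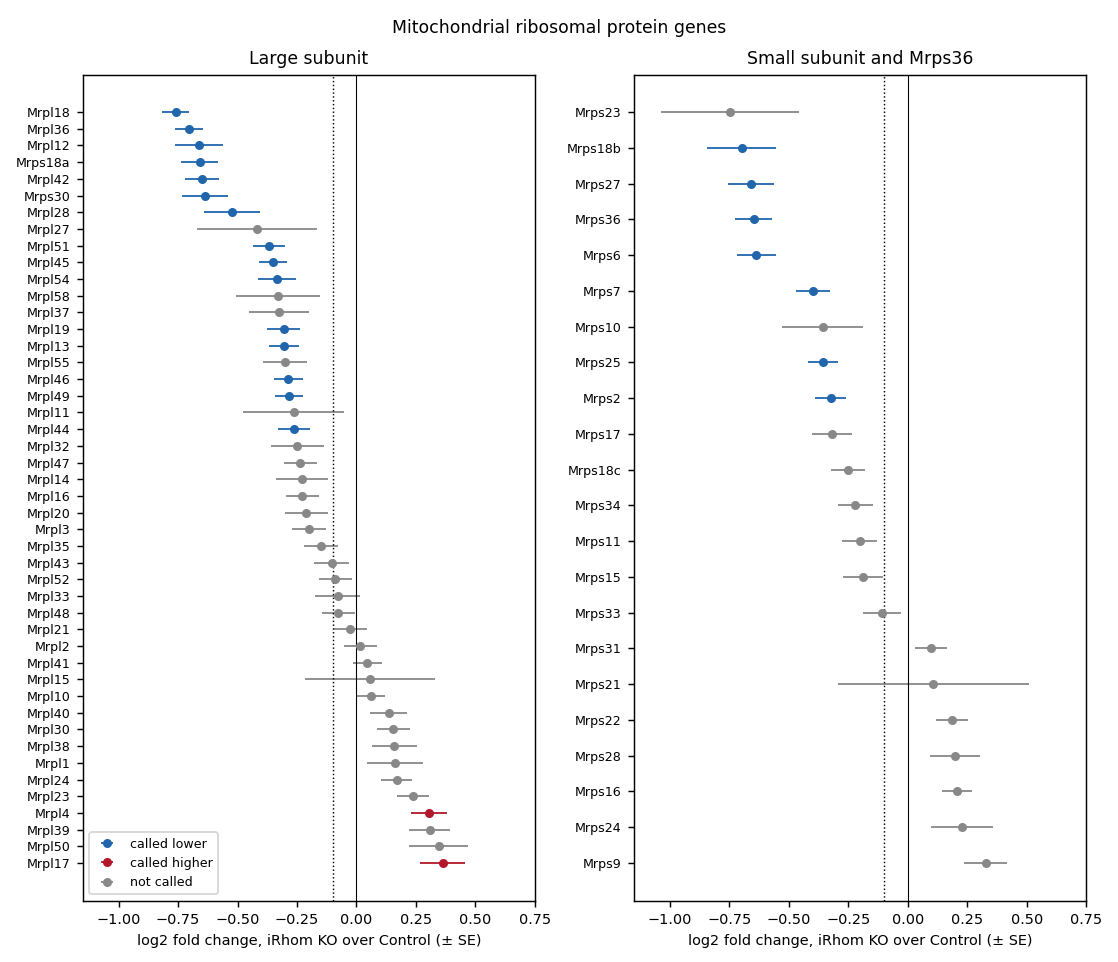
Log2 fold change of each of the 68 members, iRhom KO over Control, with its standard error from limma, for the large subunit (left) and the small subunit with Mrps36 (right). Blue points are called lower, red higher and grey not called, the solid line marks no change and the dotted line the median of all tested genes; most points lie left of 0, and the 22 called lower reach -0.76.

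In the large subunit, the deepest fall was that of Mrpl18 (ENSMUSG00000057388), whose protein sits in the central protuberance, the crest of the subunit. Its level was 98.3 FPKM in S17 and 101.7 FPKM in S19, against 58.4 FPKM in S18 and 59.3 FPKM in S20. The groups were far apart and their replicates close. The log2 fold change was -0.76 ± 0.06 (SE, n = 2 against 2; adjusted p from limma 0.00547).

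Mrpl36 encodes a small protein of the bacterial core. It gave 28.2 and 28.0 FPKM in Control and 17.4 and 16.7 FPKM in iRhom KO, with no overlap, and its change on the log2 scale was -0.70 ± 0.06 (adjusted p from limma 0.00607). Mrpl12 encodes the stalk protein that recruits the GTPase factors of translation. Its levels were 14.6 and 12.3 FPKM in Control and 8.44 and 8.12 FPKM in iRhom KO, so that the Control libraries differed more than the iRhom KO ones. Its log2 fold change was -0.66 ± 0.10 (adjusted p from limma 0.0157).

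Proteins with no bacterial counterpart at their place in the particle were among the large subunit members that fell. Mrpl42, for one, stood at 32.95 and 31.9 FPKM in Control and at 21.4 and 19.7 FPKM in iRhom KO, giving -0.65 ± 0.07 on the log2 scale (adjusted p from limma 0.00897). Mrps18a and Mrps30 carry small subunit names, but their proteins lie in the large subunit of the mammalian particle. Mrps18a read 10.8 and 11.9 FPKM in Control and 6.85 and 7.19 FPKM in iRhom KO. Mrps30 read 10.7 and 10.0 FPKM in Control and 6.996 and 6.01 FPKM in iRhom KO. Both had lower values in each iRhom KO library than in either Control library, with log2 fold changes of -0.66 ± 0.08 and -0.64 ± 0.10 (adjusted p from limma 0.00991 and 0.0155). Mrpl28, a core protein, read 44.3 and 40.2 FPKM in Control and 26.5 and 32.2 FPKM in iRhom KO. Its log2 fold change was -0.52 ± 0.12 (adjusted p from limma 0.0362). Mrps18a, Mrps30 and Mrpl28 lie on chromosomes 13 and 17. None of them was called once the median of each chromosome was subtracted, and Mrpl28 was not called with trimmed mean scaling.

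The other 8 large subunit members called lower moved less, with log2 fold changes from -0.37 for Mrpl51 to -0.26 for Mrpl44. They were Mrpl51, Mrpl45, Mrpl54, Mrpl19, Mrpl13, Mrpl46, Mrpl49 and Mrpl44. Mrpl45 encodes a protein at the tunnel exit that holds the ribosome to the inner membrane, and it read 29.0 and 29.7 FPKM in Control and 23.2 and 22.6 FPKM in iRhom KO. In each of these 8 both iRhom KO libraries lay below both Control libraries, a pattern that 46.1% of all tested genes showed. Of the 8, only Mrpl45 kept its call with trimmed mean scaling.

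In the small subunit, 6 of 21 members were called lower (28.6%) and 0 higher, against 21.9% and 10.7% of all tested genes. At an unadjusted p under 0.05 over all members the counts were 30 lower and 8 higher, against 31.3% and 15.7% of all tested genes. Mrps18b, a protein without a bacterial partner in its place, read 24.0 and 21.6 FPKM in Control and 12.2 and 15.7 FPKM in iRhom KO. The iRhom KO libraries differed from each other but lay below both Control libraries, and the log2 fold change was -0.70 ± 0.14 (adjusted p from limma 0.0289). Mrps27, an RNA-binding protein with pentatricopeptide repeats, read 8.96 and 8.05 FPKM in Control and 5.54 and 4.88 FPKM in iRhom KO, giving -0.66 ± 0.10 on the log2 scale (adjusted p from limma 0.0147). Mrps6, a core protein, read 9.54 and 9.23 FPKM in Control and 6.19 and 5.53 FPKM in iRhom KO, giving -0.64 ± 0.08 on the log2 scale (adjusted p from limma 0.0109). None of these 3 overlapped between groups, and both iRhom KO libraries lay below both Control libraries in 46.1% of all tested genes. Mrps18b on chromosome 17 and Mrps27 on chromosome 13 were not called once the median of each chromosome was subtracted. Mrps7, a protein of the head, and Mrps25 and Mrps2 fell by 0.40, 0.36 and 0.32 on the log2 scale. Mrps7, Mrps25, Mrps2 and Mrps18b were not called with trimmed mean scaling.

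Of the Mrps18 family, whose 3 genes encode related proteins placed at different sites of the particle, Mrps18a and Mrps18b passed the test and Mrps18c did not. Mrps18c read 12.1 and 12.9 FPKM in Control and 10.7 and 10.1 FPKM in iRhom KO, which did not overlap. Its log2 fold change was -0.25 ± 0.07 (adjusted p from limma 0.0603). The difference between the family members was not tested.

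Mrps36 matches the naming rule, although its protein is known as an adaptor of the 2-oxoglutarate dehydrogenase complex and not as a subunit of the mature ribosome. It read 12.6 and 12.2 FPKM in Control and 8.13 and 7.37 FPKM in iRhom KO, with no overlap. Its log2 fold change was -0.65 ± 0.08 (adjusted p from limma 0.00991). Reads shared with its pseudogene copies could make this value uncertain. Mrps36 lies on chromosome 13 and was not called once the median of that chromosome was subtracted.

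Both members called higher belong to the bacterial core of the large subunit. Mrpl17, which lies near the tunnel exit, read 4.62 and 5.36 FPKM in Control and 6.43 and 6.65 FPKM in iRhom KO. Mrpl4, part of the tunnel wall, read 13.1 and 11.9 FPKM in Control and 15.2 and 15.8 FPKM in iRhom KO. In both genes the iRhom KO libraries lay above the Control libraries. The log2 fold changes were 0.36 ± 0.09 and 0.30 ± 0.08 (adjusted p from limma 0.0472 and 0.0440), and each call was lost when any 1 library was left out.

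**Figure D2:**
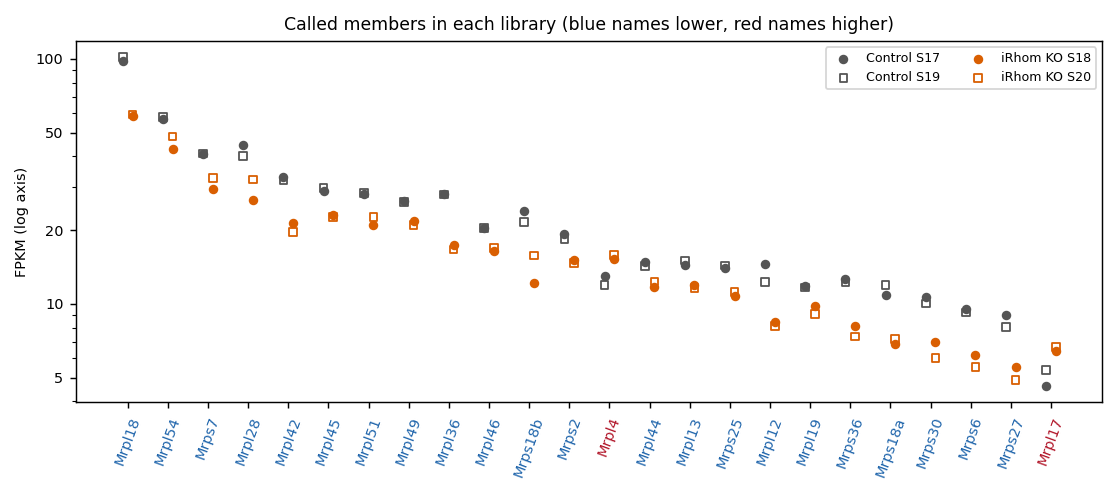
FPKM (log axis) of the 24 called members in each library, grey for Control and orange for iRhom KO, ordered by mean level. Orange symbols lie below grey ones for the 22 members with blue names and above for Mrpl4 and Mrpl17.

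Some members could not be read as closely because their replicates differed. The ratio of the higher to the lower library of a group had a median of 1.04 in Control and 1.08 in iRhom KO, and it was over 1.3 in either group for 7 members. Mrps21, a core protein, read 44.3 and 39.8 FPKM in Control but 30.1 FPKM in S18 and 68.0 FPKM in S20, on either side of Control. Mrps23 had the second lowest log2 fold change of all members, -0.75 ± 0.29, and was not called (adjusted p from limma 0.116). It read 22.4 and 30.3 FPKM in Control and 11.8 and 19.8 FPKM in iRhom KO. The other 5 were Mrpl15, Mrpl58, Mrps10, Mrpl27 and Mrpl11.

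Grouped by origin, 9 of 40 members shared with bacteria were called lower (22.5%) and 2 higher, against 21.9% and 10.7% of all tested genes. Their median change was -0.21 on the log2 scale. Of the 27 classed as specific to mitochondria, with no bacterial counterpart at their place, 12 were called lower and 0 higher, with a median of -0.28. The large subunit held 15 called lower of 46, and its median of -0.23 was close to the -0.22 of the small subunit. By site, 2 of 4 members of the stalk and its base were called lower, 2 of 8 in the central protuberance, 2 of 7 at the tunnel exit and 1 of 6 in the small subunit head. These shares were 50%, 25%, 28.6% and 16.7%, beside the 21.9% of all tested genes. The tunnel exit had a median of 0.17, with Mrpl45 and Mrpl44 called lower and Mrpl17 called higher. None of these differences between groups was tested.

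The members that fell most were unevenly spread over the chromosomes. Chromosomes 13, 15 and 17 had the lowest medians over all tested genes, apart from the Y chromosome with its 1 tested gene, at -0.36, -0.32 and -0.37, and were singled out after these values were seen. They held 14 members, of which 9 were called lower and 0 higher (median log2 fold change -0.58), and 46.9% of all 1360 tested genes there were called lower. Of the 54 members elsewhere, 13 were called lower and 2 higher (24.1% lower, median -0.17), against 18.1% lower and a median of -0.07 for the 8911 tested genes elsewhere. The members called lower there included Mrpl12 on chromosome 11, Mrpl42 on chromosome 10 and Mrps6 on chromosome 16. Chromosome 5, at a median of -0.23, was counted among those elsewhere, and 0 of its 4 members were called. After the median of each chromosome was subtracted, 9 members were called lower and 5 higher, against 12.2% and 13.8% of all genes. The member median was then -0.09. Of the members called lower on chromosomes 13, 15 and 17, only Mrpl18 and Mrpl36 kept their call. By its construction this step removes what a gene shares with its chromosome. Why these chromosomes differ was not tested.

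The surroundings of each member were also read. For each member, the median log2 fold change of the other tested genes within 5 Mb was taken, over 9 to 151 genes. It moved with the value of the member across the 68 genes (Pearson's r = 0.47, Spearman's rho = 0.38). This is given as a description, since members that lie close together share neighbours and all values come from the same 4 libraries. The neighbours of a member also carry part of the median of its whole chromosome, and a relation within chromosomes was not tested. Mrpl18 and Mrpl36 lay below their surroundings, whose medians were -0.29 and -0.39. Mrpl2 on chromosome 17 did not follow its own, with 29.5 and 27.1 FPKM in Control and 28.8 and 28.4 FPKM in iRhom KO beside a median of -0.46. In all, 38 members lay below their neighbours' median and 30 above, with a median difference of -0.07.

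**Figure D3:**
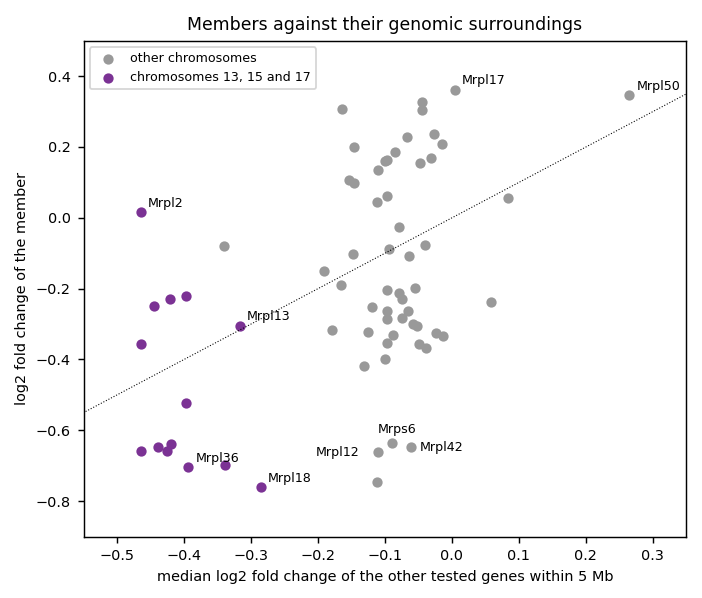
Log2 fold change of each of the 68 members against the median log2 fold change of the other tested genes within 5 Mb, with the dotted line marking equality. Members on chromosomes 13, 15 and 17 (purple) lie at the left, where the surrounding genes were also lower, and Mrpl12, Mrpl42 and Mrps6 lie far below the line.

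A head-to-head partner was counted where a protein-coding gene on the other strand starts within 1000 bases upstream of a member, or overlaps its 5′ end by less than 300 bases. By the outermost starts in the annotation, 20 of the 68 members had one (29.4%), against 15.2% of the 8323 tested protein-coding genes. Of the 16 partners that were tested, 8 were called lower and 3 higher, against 21.9% and 10.7% of all tested genes. Of those lower, Ndufs6, Ptcd2, Psma2, Ppp1r10 and Klc4 lie on chromosomes 13 and 17, and Helq, Eme1 and Pnpla7 on 5, 11 and 2. On chromosomes 13, 15 and 17, 46.9% of tested genes were called lower. The log2 fold changes of the tested partners moved with those of the members (Pearson's r = 0.57, Spearman's rho = 0.43, n = 16 pairs of the same 4 libraries). The part of the chromosomes in this was not tested. A wider limit on the overlap, under 1000 bases, was added after these values were seen, so that Mrpl18 could be included. It gave 29 members (42.6%, against 18.6% of tested coding genes) and 24 tested partners, 12 lower and 3 higher, with r = 0.50 and rho = 0.25. Mrpl46 and Mrps11, both members, are partners of each other here, so their pair was counted in each direction in these values. The larger share and the weaker rank correlation thus both came with the wider limit.

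Under the first limit, 7 partners of members called lower were tested, of which 3 were called lower and 1 higher. The other partners called lower belong to members that were not called. The 3 pairs with both genes called lower are given first. Mrpl36 is paired with Ndufs6, a subunit of respiratory complex I, which read 31.4 and 32.3 FPKM in Control and 17.1 and 16.8 FPKM in iRhom KO (log2 fold change -0.89, adjusted p from limma 0.00486). Mrps27 is paired with Ptcd2, a pentatricopeptide repeat protein of mitochondrial RNA, which read 19.9 and 19.8 FPKM in Control and 12.6 and 11.5 FPKM in iRhom KO (log2 fold change -0.70, adjusted p from limma 0.00826). The promoter of Mrps27 printed above covers the annotated starts of both genes. Mrps18b is paired with Ppp1r10, which read 5.00 and 4.68 FPKM in Control and 3.02 and 2.71 FPKM in iRhom KO (log2 fold change -0.67, adjusted p from limma 0.0110). All 3 pairs lie on chromosomes 13 and 17.

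Other pairs went apart. Mrpl51 was called lower while its partner Ncapd2, a condensin subunit, was called higher, at 55.3 and 49.97 FPKM in Control and 64.4 and 67.4 FPKM in iRhom KO. Mrpl2 was not called while its partner Klc4, a kinesin light chain, fell from 2.56 and 2.61 FPKM to 1.304 and 1.55 FPKM. Mrpl18 overlaps Tcp1, a subunit of the cytosolic chaperonin, by 644 bases in the annotation. Tcp1 read 224.5 and 222.6 FPKM in Control and 181.1 and 156.3 FPKM in iRhom KO (log2 fold change -0.41, adjusted p from limma 0.0342). Whether the libraries kept strand is not given in the sources used here, so reads in such overlaps cannot be told apart.

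**Figure D4:**
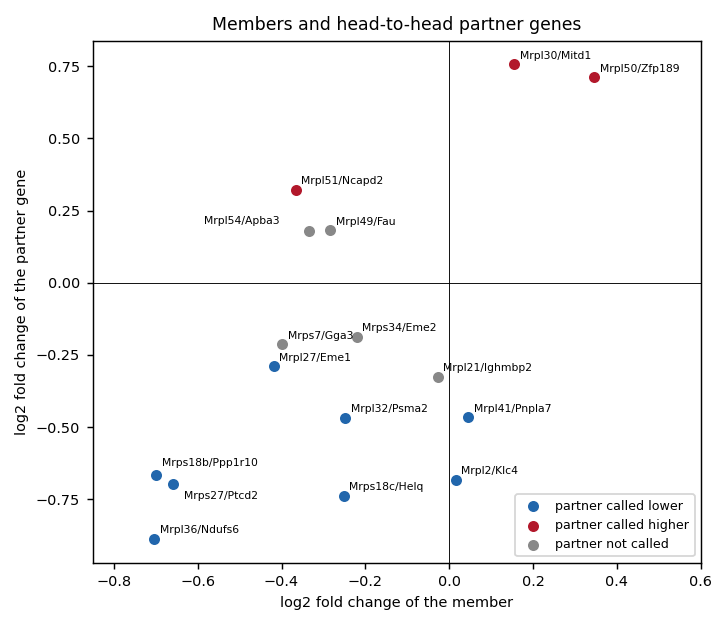
Log2 fold change of the 16 tested head-to-head partner genes (vertical axis) against that of their member (horizontal axis), coloured by the call of the partner. Mrpl36 with Ndufs6, Mrps18b with Ppp1r10 and Mrps27 with Ptcd2 lie at the lower left, and Mrpl51 with Ncapd2 lies at the upper left.

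The remaining machinery of mitochondrial gene expression was read by lists written from general knowledge. Each list count below stands against 21.9% called lower and 10.7% higher over all tested genes, unless another scaling is named. Of 4 tested ribosomal proteins with other names, Aurkaip1 was called lower, at 27.9 and 30.7 FPKM in Control and 18.9 and 19.3 FPKM in iRhom KO. Dap3, a GTP-binding protein of the small subunit, was called higher, at 9.41 and 9.36 FPKM in Control and 11.5 FPKM in both iRhom KO libraries. Of 25 genes for assembly of the particle and modification of its RNA, 3 were called lower and 2 higher (median log2 fold change -0.10). Those lower were Fastkd2, Rbfa and Rpusd4, with log2 fold changes of -0.81, -0.38 and -0.49. Those higher were Ngrn and Spg7, at 0.38 each.

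Of 18 translation factors, 6 were called lower and 0 higher (median -0.12). Lrpprc, which keeps mitochondrial messages stable, read 30.8 and 29.1 FPKM in Control and 17.7 FPKM in both iRhom KO libraries (log2 fold change -0.74, adjusted p from limma 0.00594). Gfm2 and Mrrf, which recycle ribosomes after a round of translation, had log2 fold changes of -0.52 and -0.33. Of 18 aminoacyl-tRNA synthetases and related enzymes, 4 were called lower and 0 higher (Cars2, Aars2, Gatc and Yars2). Of 14 genes for transcription and upkeep of mitochondrial DNA, 4 were called lower (Twnk, Elac2, Supv3l1 and Polg) and 2 higher (Hsd17b10 and Pnpt1). Of 9 regulators of nuclear genes for mitochondria, 2 were called lower (22.2%, against 21.9% of all tested genes). They were Gabpb2 (log2 fold change -0.44), which codes for a subunit of the ETS factor GABP, and Myc (-0.35), on chromosome 15 with its median of -0.32. Among those not called were Gabpb1 (0.20), Nrf1 (0.05) and Yy1 (-0.12). Of 9 chaperones and proteases, 2 were called lower, Clpp and Grpel1. Lrpprc, Aars2 and Clpp lie on chromosome 17, Gfm2 on 13, and Gatc and Grpel1 on 5, whose medians were -0.37, -0.36 and -0.23. Apart from Myc, the other genes named here as called lower lie on other chromosomes. The part of the chromosomes in these falls was not tested. These counts depended on scaling, filter and single libraries. With trimmed mean scaling 3 translation factors were called lower and 2 higher. The assembly genes called higher then rose in number from 2 to 5, and 2 synthetases were called higher. Over all genes that scaling called 15.8% lower and 16.2% higher. Without a filter on low values 2 translation factors were called lower, and leaving out a library gave 2 without S17, 3 without S19, 3 without S18 and 2 without S20. In the other lists of nuclear genes, leaving out a library gave 0 to 4 called lower.

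The ribosome's own targets and RNAs come from the mitochondrial genome. Of its 10 messages with a row, 7 were called lower and 0 higher, against 21.9% and 10.7% of all tested genes. Their median log2 fold change was -0.41, and the values ran from -0.69 for mt-Nd2 to -0.12 for mt-Co1. The former fell from 287 and 258 FPKM to 175 and 162 FPKM. The latter, the message with the highest level, read 10753 and 10090.5 FPKM in Control and 9896 and 9233 FPKM in iRhom KO and was not called. Subtracting the chromosome median left 1 called lower, against 12.2% of all genes. By its construction that step removes what the messages share with the other mitochondrial transcripts, so it cannot check their fall. The count was 5 with trimmed mean scaling and 4 with quantile normalization, against 15.8% and 15.1% of all genes called lower. It was 1 without a filter on low values. It was 4 without S17, 5 without S19, 3 without S18 and 0 without S20. The large ribosomal RNA, mt-Rnr2, read 676 and 575 FPKM in Control and 320 and 272 FPKM in iRhom KO (log2 fold change -1.08 ± 0.13, adjusted p from limma 0.00965). The small one, mt-Rnr1, read 97.2 and 43.3 FPKM in Control and 68.9 and 69.6 FPKM in iRhom KO, and was not called. Transcripts of the mitochondrial chromosome together took 6.68% and 5.68% of all FPKM in Control and 5.30% and 4.76% in iRhom KO. The study calls the data messenger RNA-seq and the labels give total RNA, the selection step is not given in the sources used here, and its part in the ribosomal RNA values was not tested.

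**Figure D5:**
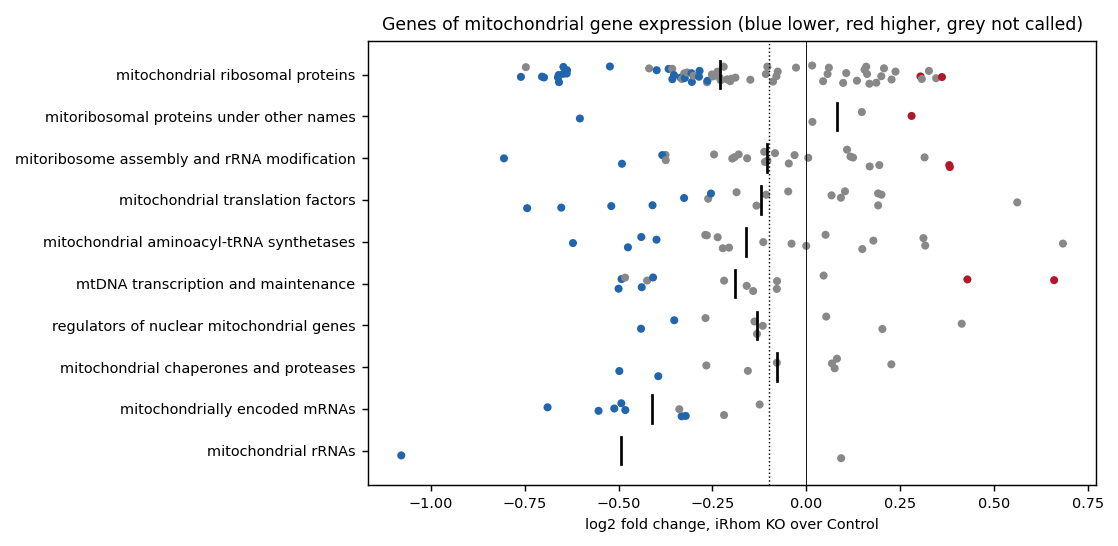
Log2 fold change of each tested gene of mitochondrial gene expression, by list, with a black bar at the list's median, the solid line at no change and the dotted line at the median of all tested genes. The mitochondrially encoded messages all lie left of 0, while most other lists have genes on both sides.

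The depth, estimated from the steps between low FPKM values, was 4.97e+07 to 5.35e+07 fragments per library, and no counts were used. The targeted gene, Rhbdf1, read 0.538 and 0.890 FPKM in Control and 0.0940 and 0.0584 FPKM in iRhom KO, below the level tested. These values equal those of Apobec2 in 3 of 4 libraries, with 0.194 FPKM for Apobec2 in S18, so they do not serve as a check of the knockout. Of the epithelial markers with a row, Krt18 read 8.58 and 9.39 FPKM in Control and 17.4 and 18.3 FPKM in iRhom KO. Krt8 read 0.0278 and 0 FPKM in Control and 6.80 and 7.03 FPKM in iRhom KO, so this defining keratin was near 0 in the Control cells. Krt20 read 10.2 and 10.5 FPKM in Control and 13.6 and 11.3 FPKM in iRhom KO and was not called. Cdx2 (0.0290 and 0.0168 FPKM in Control, 0.243 and 0.270 FPKM in iRhom KO) and Vil1 (below 0.02 FPKM in all libraries) were not tested. Of the leukocyte markers with a row, Ptprc was below 0.02 FPKM in all libraries, as were the endothelial markers Pecam1 and Tek. Cd68 read 3.36 FPKM in both Control libraries and 0.677 and 0.830 FPKM in iRhom KO and was called lower, and Lyz2 read from 1.42 to 2.24 FPKM and was not called. The 5 mesenchymal markers with a row moved apart. Col3a1 (22.9 and 22.2 FPKM in Control, 58.8 and 67.5 FPKM in iRhom KO), Acta2 and Col1a1 were called higher, Cdh2 (12.7 FPKM in both Control libraries, 8.25 and 7.67 FPKM in iRhom KO) was called lower, and Fn1 was not called. The part of these other differences between the lines in the member values was not tested.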

How the data were processed

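RNA-seq of CT26 cells was compared between 2 Control and 2 iRhom KO libraries, grouped by genotype per the labels. The authors aligned reads to GRCm38 with HISAT2 and assembled with StringTie (versions not given in the sources used here), and deposited FPKM per gene, normalised for length and depth. The table also holds the authors' own fold change and log2 fold change, which were not used. Of 21724 rows, 19 had a spreadsheet date in place of a gene name and were left out, and 54 rows of 26 shared symbols were summed. Genes whose mean reached 1 FPKM in either group were tested with limma 3.58.1 (R 4.3.3; empirical Bayes with a trend) on log2(FPKM + 0.5), two-sided, with Benjamini-Hochberg adjustment over all 10271 genes and a threshold of 0.05. Fold changes on this scale understate those of low genes. An exact permutation test of 2 against 2 cannot go below 0.333 and was not run. The fit was tested on simulated data. Positions are from GENCODE vM21 and RefSeq GRCm38.p6. Any member could be named; full values were given for up to 10 called members in each direction with the largest log2 fold change, the Mrps18 family and members singled out in the text, and up to 4 called genes of each list and direction with the smallest p, or all where values are brief. The members and lists were chosen with earlier results of these data known. Alternatives covered the pseudocount, filter, scaling, moderation, minimum fold, shared symbols, chromosome medians and leaving out each library, and 1 on the overlap of gene pairs was added after seeing the data.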

Additional observations from a re-analysis of the deposited data

How the results depend on the processing

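The counts of mitoribosomal members called lower (22) and higher (2) were within 1.5 times with pseudocounts of 0.1 or 1, robust moderation, a mean of at least 5 FPKM and the highest row of a shared symbol. Without a filter they were 17 and 0. With trimmed mean scaling they were 10 and 10, with quantile normalization 9 and 10 (13.2% and 14.7% of members, against 15.1% and 15.6% of all genes), and with the chromosome median subtracted 9 and 5, and the median log2 fold change of mitoribosomal members was then -0.13, -0.109 and -0.0917, with all genes centred near 0. A test against a minimum fold change of 1.5 gave 0 and 0, with 1 member at an unadjusted p under 0.05. Leaving out each library gave 11 to 15 lower and 0 to 1 higher, with medians from -0.25 to -0.19: 12 lower without S17, 11 without S19, 15 without S18 and 13 without S20. The lone library of a group was assumed to vary like the other group. For these fits and the fit without a filter, the share of all genes called was not taken. Whether members or listed genes lost more calls there than other genes was therefore not tested. Mrpl18, Mrpl36, Mrpl42 and Mrps6 were called lower in all 14 fits other than the one with a minimum fold. Mrpl13 turned to 0.0185 (not called) with the chromosome median subtracted, which by its construction removes what a gene shares with its chromosome. The cause of the other changes was not tested. No paired analysis was possible because the value columns carry library tags and no replicate numbers. With 2 libraries a group and FPKM in place of counts, changes of the size of the smaller calls could not be told from the spread of single libraries in several members.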
